A study of Mus musculus with 4 samples.

Results

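The CXC chemokines of the nerve described here are 10 genes taken by name, the ligands Cxcl1, Cxcl2, Cxcl5, Cxcl9, Cxcl10, Cxcl12, Cxcl13, Cxcl14 and Cxcl16 and the receptor Cxcr4. They are 10 of the 22716 gene names listed over the 4 count tables of the series, and Cxcl13 was not listed in 1 of the tables. The cells came from sciatic nerves of wild-type CD1 mice and were profiled by Drop-seq, a droplet method that tags each captured transcript near its 3' end with a unique molecular identifier (UMI). The groups were the distal nerve segment of adult mice 3 days after unilateral resection of the nerve (3 DPI), the uninjured nerve of adult mice, and neonatal nerve prepared by flow cytometry at P3 to P4 (neonatal FACS) or with myelin removal beads at P2 to P3 (neonatal beads). Both adult preparations were also cleared with myelin removal beads, and all nerves were dissociated with collagenase and trypsin. Each group was 1 library, the sources used here do not state the number of mice in each, and differences between groups therefore have no replicate check and no p-value.

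CXC chemokines are small secreted or membrane-bound proteins that guide leukocytes and other cells along gradients by way of seven-transmembrane receptors. Cxcl1, Cxcl2 and Cxcl5 draw neutrophils through the receptor Cxcr2. Cxcl9 and Cxcl10 are induced by interferons and act on activated T cells and natural killer cells through Cxcr3, and Cxcl16 is a membrane-anchored ligand of Cxcr6. Cxcl12 is made constitutively by stromal and vascular cells and acts through Cxcr4, while Cxcl13 attracts B cells in lymphoid tissue and Cxcl14 is a chemokine of epithelia and connective tissue. After nerve injury, chemokines of this family are known for bringing neutrophils and monocytes into the distal segment.

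In the GENCODE annotation of GRCm38, 6 of the members lie on chromosome 5 within 5.20 Mb, in the order Cxcl5, Cxcl1, Cxcl2, Cxcl9, Cxcl10 and Cxcl13. Cxcl1 (chr5:90891241-90893115) and its neighbour Cxcl2 (chr5:90903871-90905938) are on the plus strand, and Cxcl10 (chr5:92346638-92348889) is on the minus strand. The other members are on chromosome 6 (Cxcl12), 13 (Cxcl14), 11 (Cxcl16) and 1 (Cxcr4). Stretches of 3 promoters are shown because Cxcl1, Cxcl2 and Cxcl10 were highest in different cell classes at 3 DPI while their promoters held a motif of the same kind. For Cxcl10 that highest class rested on 9 UMIs. In the uninjured and neonatal beads libraries, Cxcl1 and Cxcl2 were both highest in endoneurial-like cells. The sequences are from RefSeq (GRCm38.p6), read 5' to 3' on the strand of the gene and upstream of its start. They cover chr5:90891125-90891194 for Cxcl1, chr5:90903779-90903848 for Cxcl2 and chr5:92348970-92349109 for Cxcl10, and capitals mark the motif matches.
Cxcl1: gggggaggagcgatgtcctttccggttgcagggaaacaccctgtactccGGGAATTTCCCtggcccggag
Cxcl2: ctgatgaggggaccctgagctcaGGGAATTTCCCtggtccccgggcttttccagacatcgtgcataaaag
Cxcl10: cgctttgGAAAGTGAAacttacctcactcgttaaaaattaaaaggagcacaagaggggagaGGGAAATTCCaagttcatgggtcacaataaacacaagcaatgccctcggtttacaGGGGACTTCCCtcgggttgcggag

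The first motif searched was the consensus site of NF-kB, a factor that drives many inflammatory genes, and the second was GAAANNGAA, a motif of the interferon-response type. Both strands were searched from 250 bases before to 50 bases after each start, and overlapping readings of 1 palindromic site were merged. Cxcl1 and Cxcl2 held the same 11-base match GGGAATTTCCC, which ended 61 bases before the start in Cxcl1 and 87 bases before it in Cxcl2. Cxcl10 held the NF-kB matches GGGAAATTCC and GGGGACTTCCC, and further upstream the interferon-type match GAAAGTGAA. The NF-kB consensus was in 8.46% of all 32851 promoters of the table and GAAANNGAA in 8.56%. Of the 8 members with an entry, Cxcl9, Cxcl12, Cxcl13, Cxcl14 and Cxcr4 had no NF-kB match in this window, and Cxcl9 and Cxcl14 had a GAAANNGAA match. A match describes the letters of the window and not a site in use. Cxcl5 and Cxcl16 had no entry.

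The libraries held 4513814 to 8123103 UMIs, and 1837 to 5420 cells per library were kept, with a median of 994 to 1791 UMIs per cell. No pair of libraries shared more than 1 cell barcode. Cells were clustered without the members among the variable genes and named from marker lists. Of 88 checks of a Schwann, mesenchymal, endothelial or VSM/pericyte marker in a library, 88 found the marker highest in its own class. Because the same lists named the classes, this result was largely fixed in advance and is no independent check. VSM stands for vascular smooth muscle, and Comp-high mesenchymal-like cells were a mesenchymal cluster led by genes such as Comp, Inmt and Sfrp4. Levels are given as CPM, the UMIs of a gene in a class per 1000000 UMIs of all its cells, with an exact Poisson 95% interval, and the share of cells with a UMI has an exact Clopper-Pearson 95% interval. These intervals cover counting error only. Because UMIs count 3' ends, CPM is not scaled by transcript length and isoforms were not told apart.

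Free RNA released during dissociation gives UMIs of a gene in cells that do not make it. The level expected from it was estimated for each class from markers of the other classes, and detection of a member required a UMI in 2% or more of a class's cells together with a lower CPM bound above that level. By this rule the 3 DPI library had 10 of 10 members detected, the uninjured library 7, neonatal FACS 8 and neonatal beads 6. The members missing from the uninjured nerve were Cxcl2, Cxcl5 and Cxcl10, those missing from neonatal FACS were Cxcl5 and Cxcl13, and those missing from neonatal beads were Cxcl2, Cxcl5, Cxcl9 and the unlisted Cxcl13. Some of these calls rested on fewer than 10 UMIs, and with a minimum of 10 UMIs the counts were 10, 6, 7 and 5. The counts also depend on depth and on the classes tested, which were 11 at 3 DPI and 8 in each other library. With cells thinned to the same number of UMIs, fewer members were detected in both neonatal libraries. How many of all genes pass the rule in each library is not given here, so the counts do not rank the libraries. Immune-like cells of the uninjured nerve numbered 20 and were too few to enter the rule.

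**Figure D1:**
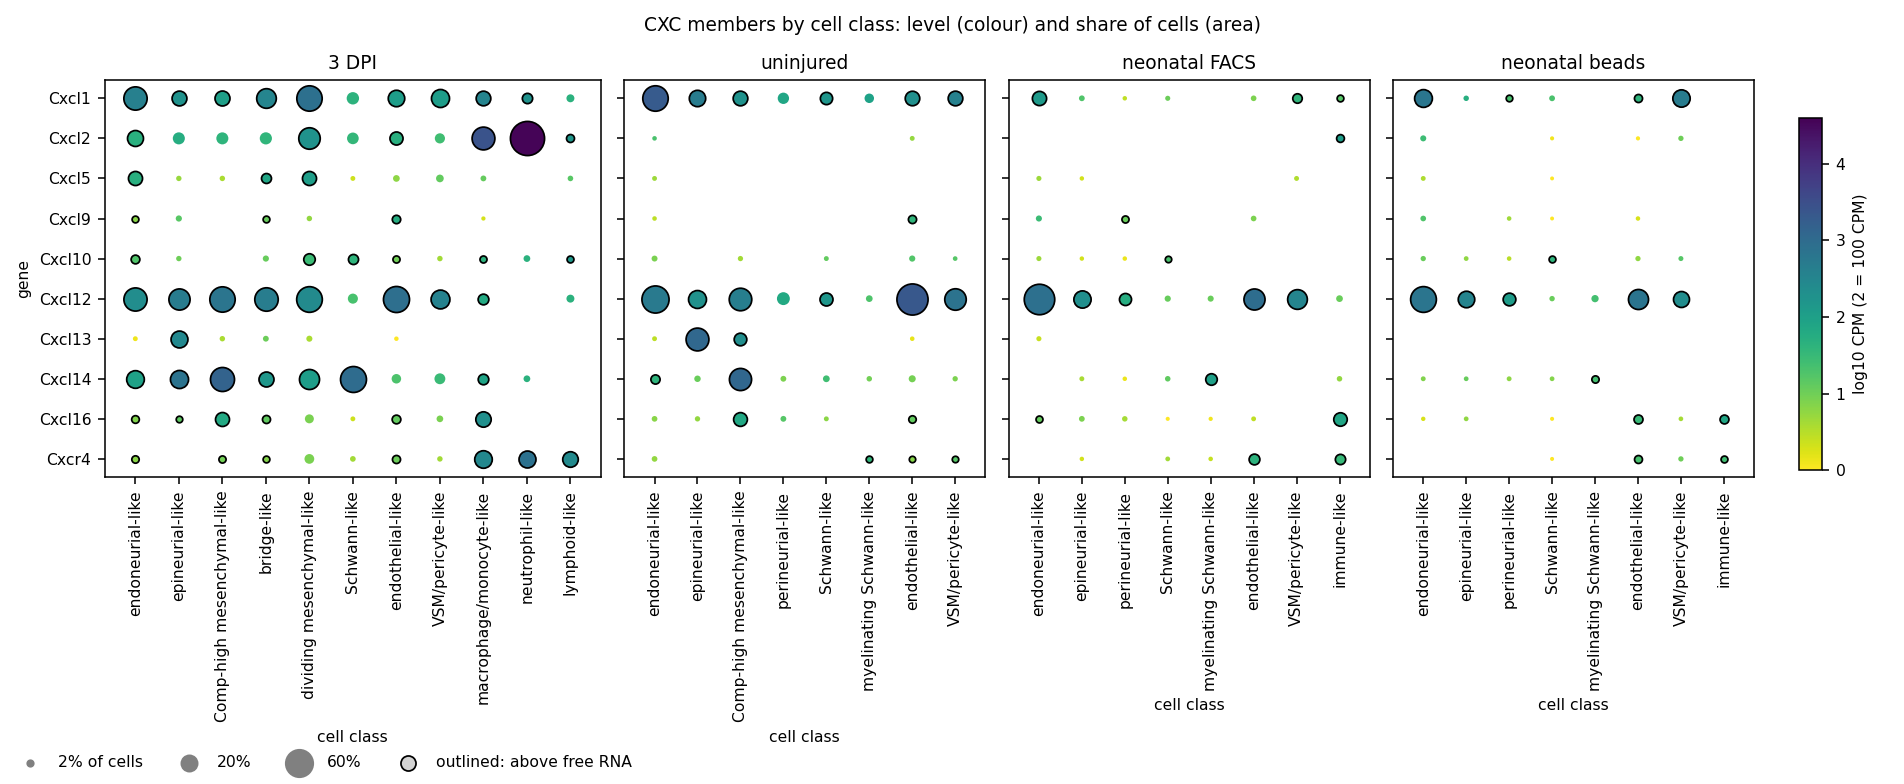
Level (colour, log10 CPM) and share of cells with a UMI (area of the circle) of the 10 members (vertical axis) in each cell class of at least 30 cells (horizontal axis) of the 4 libraries, with an outline where the level was above expected free RNA. Cxcl12 was above free RNA in 5 to 8 classes of each library, whereas Cxcl5 was so only at 3 DPI and Cxcl2 only there and in neonatal FACS immune-like cells.

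The classes differed in how many members passed the detection rule at 3 DPI. Endoneurial-like cells, the mesenchymal cells among the axons, had 9 members above expected free RNA. Bridge-like, endothelial-like and macrophage/monocyte-like cells had 7 each, and Schwann-like and VSM/pericyte-like cells had 2 each. The macrophage/monocyte-like count includes Cxcl12 and Cxcl14, which these cells should lack, so a level above expected free RNA may still be background. The rule depends on depth, and endoneurial-like cells held 1508486 UMIs, Schwann-like 451635 and VSM/pericyte-like 233644. The share of all genes passing it is not given here, so the counts alone do not rank the classes. The summed CPM of the 9 ligands ran from 402 in lymphoid-like to 3411 in macrophage/monocyte-like cells, and reached 36147 in neutrophil-like cells, where it was almost entirely Cxcl2. In the uninjured nerve the summed ligands were highest in endoneurial-like (2605 CPM) and endothelial-like cells (2552 CPM), which were led by Cxcl1 and Cxcl12 respectively.

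Cxcl1 was a ligand of mesenchymal cells in the adult nerve and was lower at 3 DPI than in the uninjured nerve. In endoneurial-like cells its level was 416 CPM (384 to 450) at 3 DPI and 1997 CPM (1913 to 2084) in the uninjured nerve, with a UMI in 43.5% and 52.2% of the cells. The injured level was 4.80-fold lower (4.39 to 5.25). Within 3 DPI, the highest level was in dividing mesenchymal-like cells, at 825 CPM (776 to 877), and endoneurial-like cells came next. Macrophage/monocyte-like (334 CPM) and bridge-like cells (317 CPM) followed with overlapping intervals. Within the macrophage/monocyte-like class, the cluster led by Gpnmb was at 552 CPM (467 to 648), above endoneurial-like cells, and the cluster led by H2-Eb1 at 74.8 CPM (43.6 to 119.7). Other classes at 3 DPI ranged from 44.3 CPM in Schwann-like to 187.5 CPM in epineurial-like cells, against an expected free RNA of 28.1 to 46.7 CPM in these classes. Mesenchymal-like cells together held 86.8% of the Cxcl1 UMIs at 3 DPI and 84.2% in the uninjured nerve. They were 1190 of the 2162 cells at 3 DPI and 858 of the 1837 cells of the uninjured nerve.

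The difference in Cxcl1 between the adult libraries had the same direction in the other compared classes, but its size varied. It was 3.55-fold lower at 3 DPI in Schwann-like cells (44.3 against 157.2 CPM, 2.07 to 6.31) and 3.41-fold lower in VSM/pericyte-like cells (116 against 394 CPM, 2.21 to 5.43). Schwann-like cells at 3 DPI were not above free RNA for Cxcl1. The Schwann-like ratio stayed past 3-fold in 4 of 7 alternative processings (2.09 to 3.83), and the VSM/pericyte-like ratio was 2.56-fold without doublet removal, whereas the endoneurial-like ratio stayed past it in 7 of 7 (3.38 to 5.20). In epineurial-like cells the level was 2.60-fold lower (188 against 488 CPM), in endothelial-like cells 1.79-fold (113 against 202 CPM) and in Comp-high mesenchymal-like cells 1.72-fold (107 against 184 CPM). The share of cells with a UMI differed much less than the level, for example 21.2% at 3 DPI against 16.2% uninjured in endothelial-like cells, and in the uninjured nerve the 5 cells with the most Cxcl1 held 52.0% of that class's UMIs. The corresponding uninjured values were 75.6% for epineurial-like, 54.1% for VSM/pericyte-like and 43.0% for Comp-high mesenchymal-like cells. They were lower for Schwann-like (38.8%) and endoneurial-like cells (14.3%). With each cell thinned to 500 UMIs, 19.5% of endoneurial-like cells at 3 DPI and 34.1% of those in the uninjured nerve had a Cxcl1 UMI. Thinned shares at 3 DPI and uninjured were 4.76% and 7.66% for Schwann-like and 6.76% and 11.6% for VSM/pericyte-like cells. They were nearly equal for epineurial-like (8.91% and 8.99%), Comp-high mesenchymal-like (5.56% and 5.99%) and endothelial-like cells (5.34% and 5.81%).

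Genes that respond to tissue dissociation moved in the same direction as Cxcl1. The summed level of 11 immediate early and heat shock genes (Fos, Jun, Egr1, Hspa1a and others) was 37769 CPM in uninjured against 8391 CPM in 3 DPI endoneurial-like cells, 46588 against 6853 CPM in Schwann-like cells and 30276 against 6155 CPM in VSM/pericyte-like cells. It was 11666 against 4994 CPM in epineurial-like, 9054 against 3689 CPM in Comp-high mesenchymal-like and 23817 against 8296 CPM in endothelial-like cells. The summed level was thus lower at 3 DPI in all 6 classes. Of the 11 genes, 8 were at least 3-fold lower at 3 DPI in endoneurial-like cells (4.47% of all genes), 5 in epineurial-like (2.40%), 2 in Comp-high mesenchymal-like (2.92%), 9 in Schwann-like (7.94%), 4 in endothelial-like (3.51%) and 10 in VSM/pericyte-like cells (6.27%), and 0 were higher in any of them. Their part in the Cxcl1 difference was not tested.

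The neonatal preparations also differed in Cxcl1. Endoneurial-like cells had 130.0 CPM (97.6 to 169.6) in neonatal FACS and 614 CPM (549 to 684) in neonatal beads, with a UMI in 15.5% and 24.8% of cells. VSM/pericyte-like cells had 38.8 CPM in the first and 486 CPM in the second. The dissociation-sensitive genes summed to 3057 and 7051 CPM in endoneurial-like cells and to 2439 and 12439 CPM in VSM/pericyte-like cells of these libraries. Isolation and age differed between the preparations and cannot be told apart.

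Cxcl2 marked the myeloid cells of the injured nerve. At 3 DPI the 40 neutrophil-like cells had 35874 CPM (33412 to 38468), with a UMI in 95% of them (83.1 to 99.4), and the 389 macrophage/monocyte-like cells had 2667 CPM (2526 to 2815), with a UMI in 41.6%. Neutrophil-like cells were shallow, with a median of 442 UMIs per cell, and still held a median of 13.5 Cxcl2 UMIs per positive cell. Together the immune-like classes held 81.8% of the Cxcl2 UMIs of the library. The macrophage/monocyte-like cells were not uniform. The cluster led by Gpnmb and Mmp12, genes of lipid-laden and tissue-remodelling macrophages, had 4131 CPM with a UMI in 68.7% of cells, and the cluster led by the antigen-presentation genes H2-Eb1 and Cd74 had 928 CPM with a UMI in 21.5%.

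Outside the immune-like classes, Cxcl2 was hard to tell from free RNA at 3 DPI. Dividing mesenchymal-like cells stood above it, with 181 CPM (158 to 206) against 59.5 expected and a UMI in 36.7% of cells. Endoneurial-like (48.4 CPM against 32.3 expected) and endothelial-like cells (49.4 against 28.8) were above it by less than 2-fold. Schwann-like cells had been set down as a class that should lack the gene, although the study listed Cxcl2 among ligands that Schwann cells expressed nearly only after injury. In them 10% of cells had a UMI and the level was 35.4 CPM against 31.5 expected, not above free RNA. Epineurial-like, Comp-high mesenchymal-like, bridge-like and VSM/pericyte-like cells (25.7 to 53.3 CPM) were likewise not above it. In the non-immune classes the 9 immune markers summed to 164 to 238 CPM and the 4 neutrophil markers to 20.6 to 39.8 CPM, compared with 45616 CPM of the latter in neutrophil-like cells. Whether the Cxcl2 UMIs of these classes were free RNA or made by the cells was not tested.

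The other libraries had little Cxcl2. It came to 48 UMIs in 8 cells of the uninjured nerve, of which 19 UMIs were in 3 of the 20 immune-like cells and 22 UMIs in 2 endoneurial-like cells. In neonatal FACS all 21 UMIs were in 3 of the 80 immune-like cells, and neonatal beads had 26 UMIs in 15 cells. 0 of those UMIs were in the 38 immune-like cells of that library, which allows a share of up to 7.89%, although the neutrophil markers summed to 48400.5 CPM there. Where both adult libraries had UMIs, the 3 DPI level was 9.39-fold higher in endothelial-like cells (4.24 to 24.6, on 50 and 7 UMIs) and 2.34-fold higher in endoneurial-like cells (1.44 to 3.96). In epineurial-like, Comp-high mesenchymal-like and Schwann-like cells no UMI was found in the uninjured nerve, so that the 3 DPI level was at least 3.13-fold, 9.29-fold and 3.68-fold higher against a floor of 3 counts in the uninjured class, but these 3 DPI levels were within free RNA.

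The balance of Cxcl1 and Cxcl2, neighbours on the chromosome that share the promoter match printed above, reversed between cell classes. At 3 DPI, Cxcl2 made up 10.4% (8.25 to 12.9) of the UMIs of both genes in endoneurial-like, 11.1% in bridge-like and 18.0% (15.9 to 20.2) in dividing mesenchymal-like cells. It made up 88.9% (87.2 to 90.4) in macrophage/monocyte-like and 99.5% (98.7 to 99.9) in neutrophil-like cells. In the uninjured nerve the share was 1.03% in endoneurial-like cells and 0 of 86, 128, 49 and 98 UMIs in epineurial-like, Comp-high mesenchymal-like, Schwann-like and VSM/pericyte-like cells. The 3 DPI shares in the non-immune classes include Cxcl2 expected from free RNA as described. In dividing mesenchymal-like cells this was part of a level that stood above it. The transcripts of Cxcl1 and Cxcl2 had no stretch of 50 bases in common, whereas Cxcl2 and Cxcl3 shared 126 such stretches, so that the counting could split reads between these last genes.

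**Figure D2:**
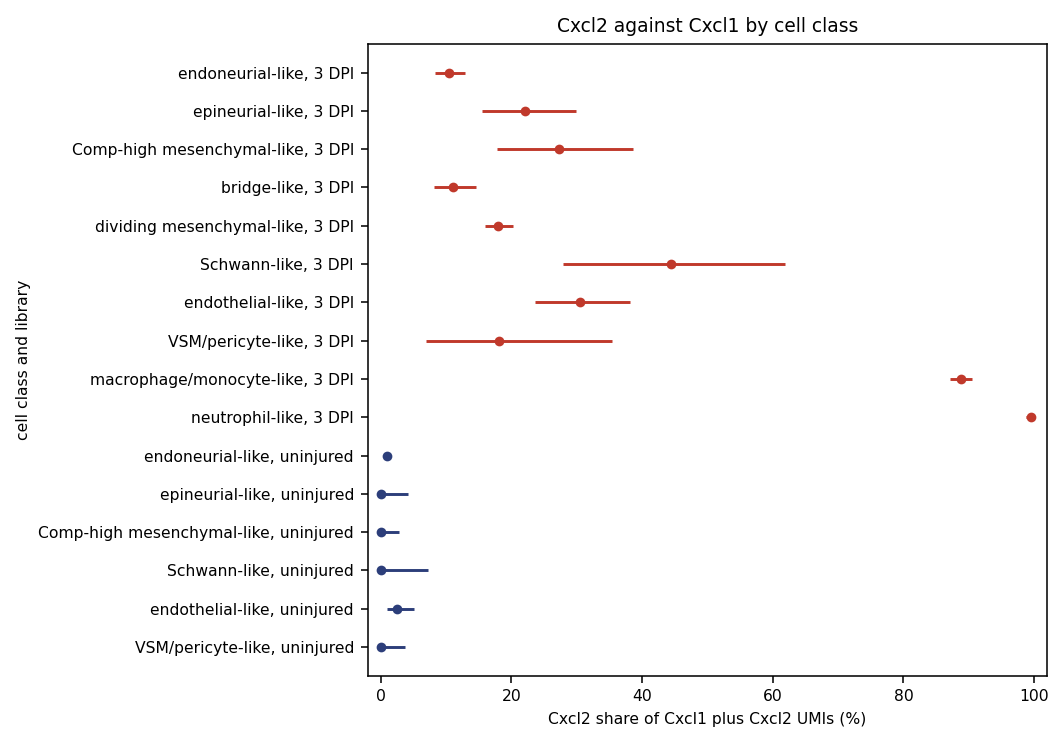
Share of Cxcl2 among the UMIs of Cxcl1 and Cxcl2 together (horizontal axis, percent) in each class with at least 20 UMIs of both genes together (vertical axis) at 3 DPI (red) and in the uninjured nerve (blue), with exact 95% intervals. Macrophage/monocyte-like cells (88.9%) and neutrophil-like cells (99.5%) stand apart from the other classes shown, which are at or below 44.4%, and lymphoid-like cells at 3 DPI, with 3 Cxcl1 and 10 Cxcl2 UMIs, are not shown.

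Within classes, cells with a Cxcl1 UMI more often had a Cxcl2 UMI, but they were also deeper. Among dividing mesenchymal-like cells at 3 DPI, 55.8% of the 86 cells with Cxcl1 and 16.2% of the others had Cxcl2, with median depths of 9399.5 and 3115 UMIs. Among macrophage/monocyte-like cells, where depths were closer (1215.5 and 909 UMIs), 79.7% of the 64 cells with Cxcl1 and 34.2% of the others had Cxcl2. These are descriptions of 1 library, and the part of depth in them was not tested.

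Cxcl5 was a mesenchymal ligand of the injured nerve. At 3 DPI it reached 112 CPM (94.0 to 131) in dividing mesenchymal-like, 75.5 CPM in bridge-like and 50.4 CPM in endoneurial-like cells, with a UMI in 15.1%, 6.92% and 15.1% of the cells. Free RNA was expected at 7.44, 4.15 and 4.04 CPM there. A total of 94.8% of its 325 UMIs were in mesenchymal-like cells, which were 1190 of the 2162 cells. The macrophage/monocyte-like cells, which should lack it, had 12.1 CPM (4.43 to 26.3) and a UMI in 1.54% of cells. The uninjured, FACS and beads libraries had 5, 4 and 3 UMIs in all. In endoneurial-like cells the 3 DPI level was 10.7-fold higher (4.39 to 33.9), from 76 and 5 UMIs. A few cells carried much of the signal, since 5 cells held 64.3% of the bridge-like and 56.6% of the dividing mesenchymal-like UMIs.

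Of the interferon-inducible ligands, Cxcl9 was highest in endothelial-like cells of the adult nerve. Its level was 57.3 CPM (43.5 to 74.1) at 3 DPI and 38.4 CPM (28.6 to 50.4) in the uninjured nerve, in 4.56% and 4.29% of endothelial-like cells. The ratio was 1.495 (1.01 to 2.22). This level came from few cells, with 5 cells holding 89.7% and 64.7% of the UMIs in the respective libraries, and 1 cell at 3 DPI holding 38 of 58. Mesenchymal-like cells held 39 of the 98 Cxcl9 UMIs of the library at 3 DPI and 3 of 54 in the uninjured nerve, and at 3 DPI endoneurial-like (6.63 CPM) and bridge-like cells (11.7 CPM) were above free RNA. In Schwann-like cells, which should lack it, 0 of 140 cells at 3 DPI had a UMI, which at a limit of 3 counts allows a share of cells with a UMI of up to 2.14%. In the neonatal libraries the highest level was in endoneurial-like cells, 28.9 CPM from 12 UMIs in 2 cells in FACS and 18.8 CPM from 10 UMIs in 4 cells in beads.

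Cxcl10 was low in all libraries. At 3 DPI it was above free RNA in 6 classes, among them Schwann-like (39.9 CPM, 23.6 to 63.0), macrophage/monocyte-like (44.2 CPM) and dividing mesenchymal-like cells (29.6 CPM), where 7.14%, 2.83% and 9.64% of cells had a UMI. Lymphoid-like cells had 139 CPM, from 9 UMIs in 2 cells. The intervals of the first 3 of these classes overlapped. In the uninjured nerve no class of at least 30 cells had a UMI in 2% of its cells, and endothelial-like cells held 51.1% of the 47 UMIs.

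In the neonatal libraries, Cxcl10 was in Schwann-like cells, although this class had been set down as one that should lack it. They held 87.9% of its 33 UMIs in FACS and 87.4% of its 182 UMIs in beads, at 21.0 CPM (14.1 to 30.1) and 40.3 CPM (34.3 to 47.1) against 0.305 and 1.67 CPM expected from free RNA. Schwann-like cells made up 35.5% and 67.0% of all cells of these libraries, and only 2.19% and 2.59% of the Schwann-like cells had a UMI. In beads the cluster led by the DNA replication gene Lig1 had 98.8 CPM (75.2 to 127) with a UMI in 6.61% of cells, compared with 47.0 CPM in the cluster led by Scn7a, 42.2 CPM in that led by the mitotic gene Ube2c and 10.3 CPM in that led by Pou3f1, a factor of promyelinating Schwann cells. In FACS, 460 of the 778 Schwann-like cells were in another cluster, led by Pmel, with 16.7 CPM, and the Lig1 and Ube2c clusters there had 32.3 and 33.8 CPM from 5 and 7 UMIs.

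Between the adult libraries, Cxcl10 in Schwann-like cells was 39.9 CPM at 3 DPI and 12.8 CPM uninjured, a ratio of 3.11 (1.02 to 12.6) on 18 and 4 UMIs. This ratio stayed above 3 in 3 of 6 alternative processings and ran from 1.83 to 3.55, so it was not firmly above the threshold. Of the 8 NF-kB target genes listed (Nfkbia, Il6, Ccl2 and others), 1 of 8 tested was higher and 0 were lower in endoneurial-like cells, against 9.24% and 4.47% of all genes. That gene was Ccl2, a chemokine for monocytes, whose level was 2528 CPM at 3 DPI and 179.7 CPM in the uninjured nerve, and the median ratio of the list was 0.933 against 1.17 for all genes. In Schwann-like cells 1 of 5 was higher and 3 were lower, against 10% and 7.94% of all genes. The median ratio there was 0.276 against 1.08 for all genes. In epineurial-like cells 1 of 7 was higher and 0 were lower (all genes 7.09% and 2.40%). In Comp-high mesenchymal-like cells 0 of 8 were higher or lower (3.80% and 2.92%). Endothelial-like cells had 1 of 8 higher and 0 lower (4.82% and 3.51%). VSM/pericyte-like cells had 2 of 7 higher and 1 lower (7.58% and 6.27%).

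Cxcl16 was found in macrophages and in Comp-high mesenchymal-like cells. At 3 DPI macrophage/monocyte-like cells had 205 CPM (167 to 249) with a UMI in 18.3% of cells. Comp-high mesenchymal-like cells had 66.8 CPM (46.5 to 92.9) at 3 DPI and 70.5 CPM (52.1 to 93.2) in the uninjured nerve, a ratio of 0.948 (0.596 to 1.49). Their shares of cells, 14.9% and 14.4%, were also close, and the other non-immune classes of these libraries had at most 16.5 CPM. The neonatal immune-like cells had 77.4 CPM from 14 UMIs in FACS and 75.7 CPM from 3 UMIs in beads. In beads the endothelial-like cells held 75.0% of the UMIs, at 31.8 CPM (21.9 to 44.6). In Schwann-like cells, which should lack it, the level was at most 6.42 CPM in any library.

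Cxcl12 was highest in endothelial-like cells in all 4 libraries. The levels were 868 CPM (812 to 928) at 3 DPI, 2264 CPM (2184 to 2347) uninjured, 927 CPM (831 to 1030) in neonatal FACS and 669 CPM (620 to 721) in neonatal beads. In both neonatal libraries endoneurial-like cells followed at 830.4 CPM and 660.6 CPM, with intervals that overlapped those of endothelial-like cells. A UMI was more frequent in the endoneurial-like cells, at 75.5% and 53.5% of cells against 35.4% and 32.0%. At 3 DPI the order continued with Comp-high mesenchymal-like (649 CPM), epineurial-like (490.3), bridge-like (464) and VSM/pericyte-like cells (385), and the last 3 of these had overlapping intervals. Free RNA was expected at 31.4 to 65.0 CPM at 3 DPI, and Schwann-like cells were at 22.1 CPM. Macrophage/monocyte-like cells, which should lack Cxcl12, had 64.3 CPM against 33.2 expected, always as 1 UMI per cell.

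The endothelial-like cells of the uninjured nerve divided by Cxcl12. The cluster led by Slco1a4 and Cldn5, genes of barrier capillaries, had 3556 CPM (3386 to 3733) with a UMI in 93.3% of its 149 cells. The cluster led by Rbp7 and Gpihbp1, genes of capillaries and arterioles outside the barrier, had 2982 CPM (2800.0 to 3172) with a UMI in 78.9% of 147 cells. The cluster led by the venular adhesion genes Selp and Sele had 707 CPM (637 to 782) with a UMI in 61.3% of 124 cells. At 3 DPI endothelial-like cells formed 1 cluster, led by Plvap and with Selp, Aqp1 and Lrg1 among its leading genes. The class as a whole was at 0.383 of the uninjured level (0.355 to 0.413), and the makeup of the class and the level within its cells cannot be told apart in this ratio.

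**Figure D3:**
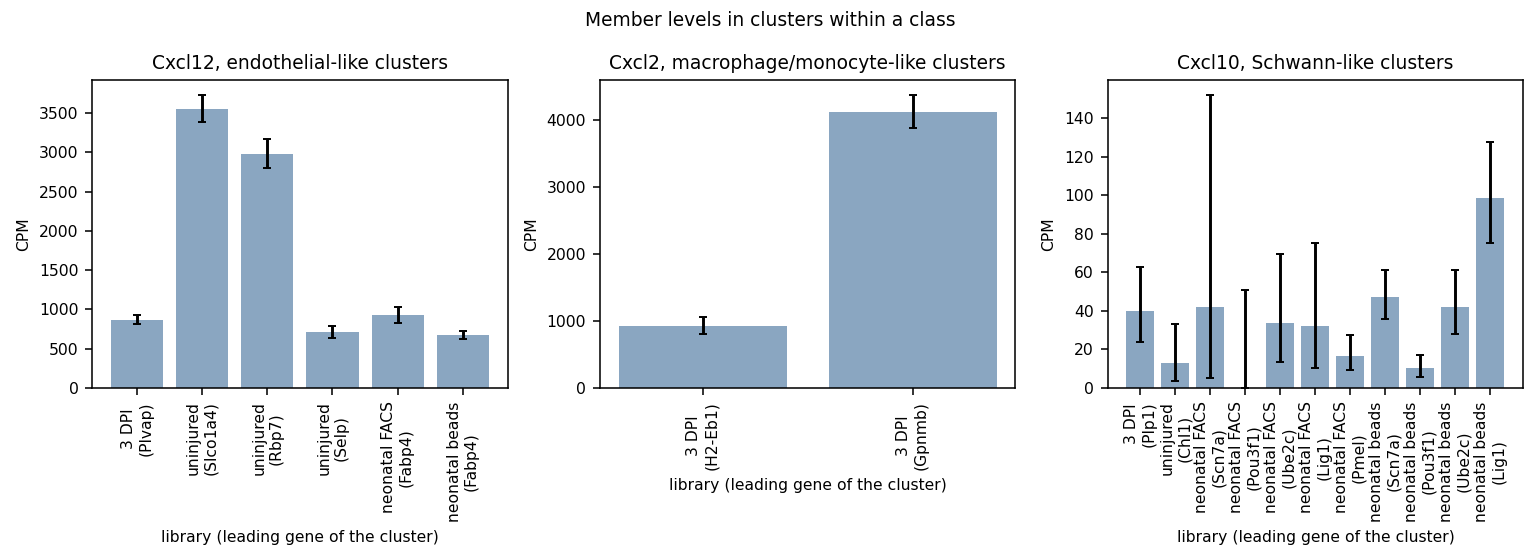
Level (CPM, vertical axis, exact Poisson 95% intervals) of Cxcl12 in endothelial-like clusters, Cxcl2 in macrophage/monocyte-like clusters and Cxcl10 in Schwann-like clusters, by library and leading gene of the cluster (horizontal axis). Cxcl12 is 3556 and 2982 CPM in the Slco1a4 and Rbp7 clusters of the uninjured nerve and 707 CPM in the Selp cluster, and Cxcl2 is 4131 CPM in the Gpnmb cluster and 928 CPM in the H2-Eb1 cluster.

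Cxcl12 differed between the adult libraries in opposite directions in different classes. It was lower at 3 DPI in endoneurial-like cells, with a ratio of 0.439 (0.383 to 0.503, 229 against 521 CPM), and in VSM/pericyte-like cells, with a ratio of 0.545 (0.418 to 0.706). It was higher in epineurial-like cells, with a ratio of 2.47 (1.73 to 3.62, 490.3 against 198.6 CPM), and in Comp-high mesenchymal-like cells, with a ratio of 1.46 (1.25 to 1.71). These last ratios depended on the border between both classes, since the sum of the classes gave 1.43 (1.25 to 1.64) and the clustering resolution of 0.8 gave 6.15 in Comp-high mesenchymal-like cells. In Schwann-like cells it was 6.96-fold lower (3.47 to 15.4), from 22.1 CPM at 3 DPI, below the free RNA expected there, and 154 CPM in the uninjured nerve against 80.5 expected. With cells classed by their own markers instead of by cluster, this last ratio shrank to 1.13-fold lower.

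Cxcl13 was an epineurial ligand of the adult nerve. Its level in epineurial-like cells was 1169 CPM (1015 to 1340) in the uninjured nerve, with a UMI in 41.8% of cells, and 280.4 CPM (239 to 327) at 3 DPI, with a UMI in 22.3%. This was 4.17-fold lower at 3 DPI (3.38 to 5.15), and 2.56-fold lower with cells classed by their own markers. In the uninjured nerve 5 cells held 62.6% of the UMIs. Comp-high mesenchymal-like cells had 226 CPM uninjured and 3.82 CPM, from 2 UMIs, at 3 DPI, which was 59.2-fold lower (16.1 to 493). This class stayed past 3-fold in 5 alternative processings that gave a ratio (6.65-fold to 109.6-fold), and at the clustering resolution of 0.8 it had too few Cxcl13 UMIs for one. Summed with epineurial-like cells the ratio of 3 DPI to uninjured was 0.358, short of 3-fold. Mesenchymal-like cells held 99.5% of the UMIs in both libraries, and the immune-like cells, which should lack Cxcl13, had 0 UMIs. The neonatal libraries had 1 UMI in FACS and no listing in beads.

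Cxcl14 had the largest difference in Schwann-like cells of any member. Its level there was 979 CPM (890 to 1074) at 3 DPI, with a UMI in 54.3% of the 140 cells, and 25.7 CPM (11.1 to 50.6) in the uninjured nerve, with a UMI in 2.54% of 276 cells. Expected free RNA was 25.9 and 18.0 CPM. The 3 DPI level was 38.1-fold higher (19.2 to 88.9), and 14.2-fold to 46.3-fold higher over 7 alternative processings. Counting the myelinating Schwann-like cells of the uninjured nerve with the others gave 45.1-fold (23.5 to 99.2). Thinned to 500 UMIs per cell, 29.4% of 3 DPI and 1.15% of uninjured Schwann-like cells had a UMI.

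In mesenchymal cells, Cxcl14 was highest in the Comp-high class in both adult libraries. The level was 1452 CPM (1351 to 1559) at 3 DPI and 1230 CPM (1148 to 1315) in the uninjured nerve, a ratio of 1.18 (1.07 to 1.30), with a UMI in 46.4% and 39.3% of cells. At the finer clustering resolution of 0.8 this ratio was 5.79. Epineurial-like cells had 716 CPM at 3 DPI and 11.3 CPM, from 2 UMIs, in the uninjured nerve, a ratio of 63.1 (17.4 to 522). Both ratios depended on where the border between the classes was drawn. Summed over epineurial-like and Comp-high mesenchymal-like cells, a sum chosen after the values were seen, Cxcl14 was 1065 CPM at 3 DPI and 983 CPM uninjured, with a ratio of 1.08 (0.991 to 1.18). With cells classed by their own markers the epineurial-like ratio reversed to 0.795. The same sum left Cxcl13 2.79-fold lower at 3 DPI (2.31 to 3.37), at 149 against 416 CPM.

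The neonatal nerve had little mesenchymal Cxcl14. Mesenchymal-like cells held 3 UMIs in FACS and 10 in beads. In FACS the myelinating Schwann-like cells had 99.4 CPM (78.7 to 124) with a UMI in 9.73% of 442 cells, and the other Schwann-like cells had 13.0 CPM (7.72 to 20.6). In beads, where only 32 cells were myelinating Schwann-like, this class had 1 UMI, on which the count of Cxcl14 as detected in that library rests. At 3 DPI the macrophage/monocyte-like cells, which should lack Cxcl14, had 82.4 CPM (59.1 to 112) against 25.0 expected.

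Cxcr4, the receptor of Cxcl12, was an immune receptor at 3 DPI. Neutrophil-like cells had 774 CPM (451 to 1239), macrophage/monocyte-like cells 285 CPM (240.4 to 336) and lymphoid-like cells 263 CPM (153 to 421), with a UMI in 22.5%, 24.2% and 18.7% of cells. The intervals of the latter pair overlapped. These classes held 78.6% of the 224 UMIs, and 41.0% of cells of the Gpnmb cluster had a UMI against 11.7% of the H2-Eb1 cluster. Non-immune classes at 3 DPI had at most 10.9 CPM. In the uninjured nerve 5 of 20 immune-like cells had a UMI (385 CPM from 8 UMIs), and the other classes had 0 to 9 UMIs each.

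In the neonatal libraries most Cxcr4 UMIs were in endothelial-like cells, which numbered 144 in FACS and 482 in beads. Endothelial-like cells had 43.2 CPM (24.7 to 70.2) in FACS and 22.1 CPM (14.0 to 33.2) in beads, with a UMI in 8.33% and 3.94% of cells, and held 51.6% and 71.9% of the UMIs. The adult endothelial-like cells were at 10.9 CPM at 3 DPI and 6.77 CPM in the uninjured nerve. Schwann-like cells, which should lack the receptor, had at most 4.43 CPM in any library, and the myelinating Schwann-like cells of the uninjured nerve had 38.9 CPM from 4 UMIs in 2 cells. The 80 immune-like cells of FACS had 33.2 CPM (12.2 to 72.2) from 6 UMIs, and the 38 of beads had 25.2 CPM (0.639 to 141) from 1 UMI. These intervals overlapped those of the endothelial-like cells, so the levels of these classes are not ranked.

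A ratio of at least 3 between 3 DPI and the uninjured nerve, in a gene with at least 10 UMIs over both, was used to count members in the 6 classes present in both libraries. In Schwann-like cells 3 of 5 testable members were higher (Cxcl14, Cxcl2 and Cxcl10) against 10% of all genes, and 2 were lower (Cxcl12 and Cxcl1) against 7.94%. In epineurial-like cells 2 of 5 were higher (Cxcl14 and Cxcl2) against 7.09% and 1 was lower (Cxcl13) against 2.40%. In endoneurial-like cells 1 of 9 was higher (Cxcl5) against 9.24% and 1 lower (Cxcl1) against 4.47%. All 5 testable members of the Schwann-like class passed the ratio in 1 direction or the other, but of these only Cxcl14 and Cxcl2 kept the call in every alternative that gave a value, and Cxcl2 was within free RNA.

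The remaining classes had fewer calls. In Comp-high mesenchymal-like cells 1 of 6 members was higher (Cxcl2) against 3.80% of all genes and 1 was lower (Cxcl13) against 2.92%. In endothelial-like cells 1 of 8 was higher (Cxcl2) against 4.82% and 0 were lower against 3.51%. In VSM/pericyte-like cells 0 of 2 were higher against 7.58% and 1 was lower (Cxcl1) against 6.27%. The median ratio of the testable members was 3.11 in Schwann-like, 2.47 in epineurial-like, 2.19 in endoneurial-like, 1.25 in endothelial-like, 1.06 in Comp-high mesenchymal-like and 0.419 in VSM/pericyte-like cells, and that of all genes lay between 1.02 and 1.17. The Schwann-like and endoneurial-like medians are the Cxcl10 ratios and the epineurial-like median is that of Cxcl12. The Schwann-like one rests on 18 and 4 UMIs, and its place among the ratios counts Cxcl2, set against a floor of 3 counts. Such medians of few members do not describe the family as a whole. A member counted only when it had enough UMIs, so untested members are not shown to be unchanged. The Cxcl2 calls in epineurial-like, Comp-high mesenchymal-like and Schwann-like cells were within free RNA.

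**Figure D4:**
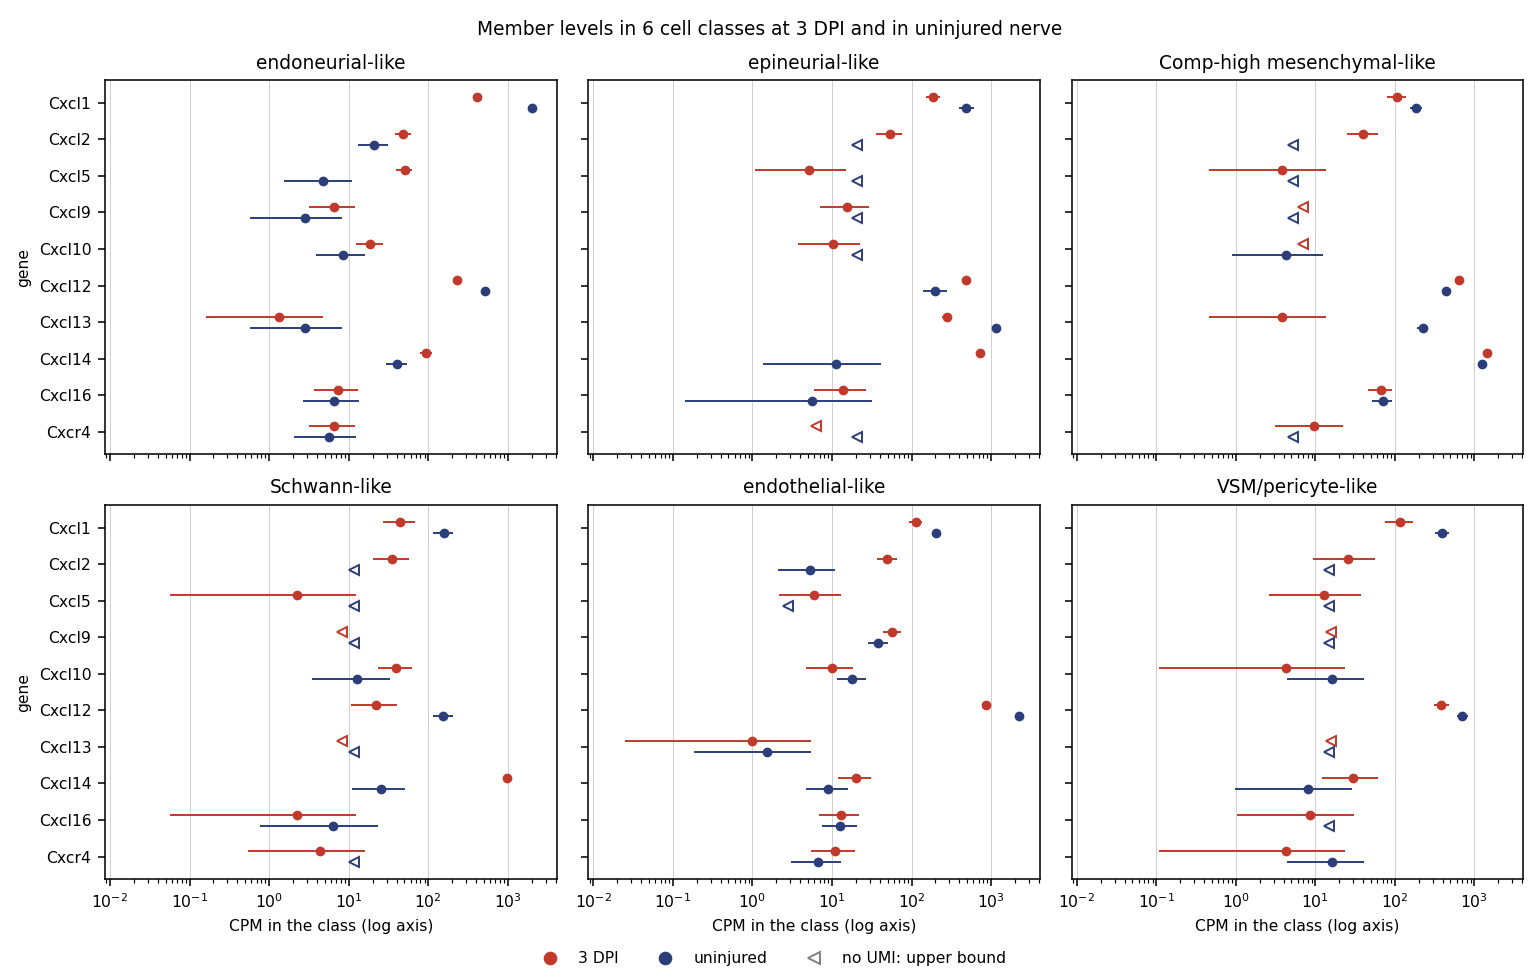
Level of each member (vertical axis) in CPM (horizontal log axis) in the 6 classes present at 3 DPI (red) and in the uninjured nerve (blue), with exact Poisson 95% intervals and open triangles at the upper bound where no UMI was found. Cxcl14 separates the libraries in Schwann-like cells (979 against 25.7 CPM), and Cxcl1 is lower at 3 DPI in all 6 classes.

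**Figure D5:**
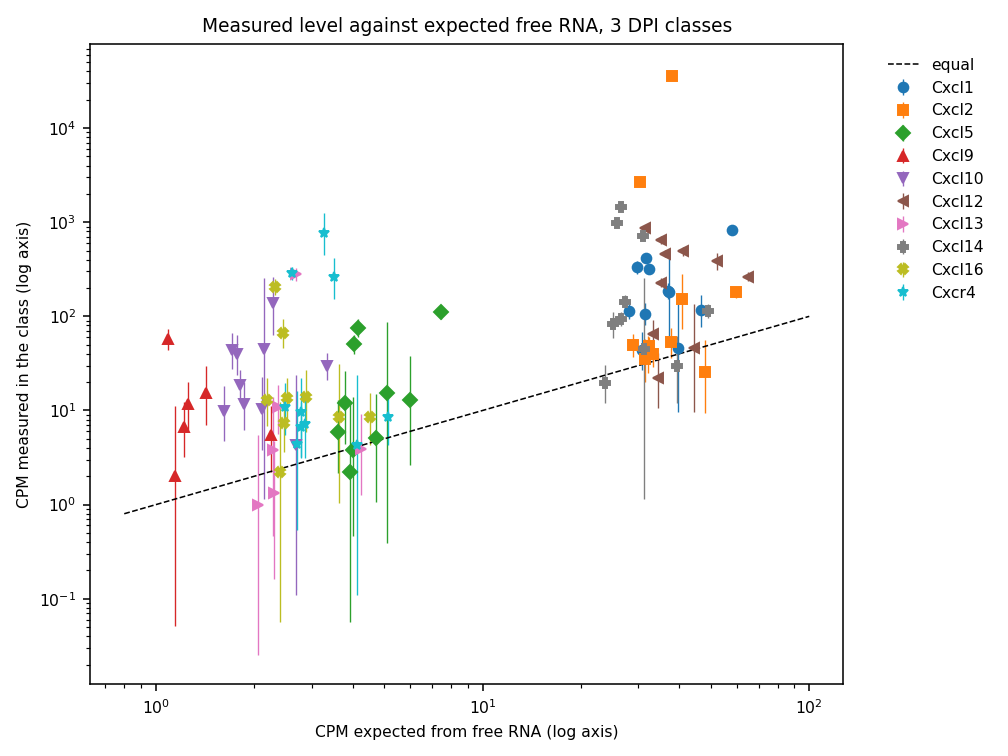
Level measured in each class at 3 DPI (vertical log axis, CPM, exact Poisson 95% intervals) against the level expected from free RNA (horizontal log axis, CPM), with 1 symbol per member and the dashed line where both are equal. Cxcl2 lies near the line in most classes and far above it in macrophage/monocyte-like (2667 CPM) and neutrophil-like cells (35874 CPM), and Cxcl14 in Schwann-like cells is at 979 CPM against 25.9 expected.

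The genes listed below had the pattern most like each member, by Pearson's r of log2(CPM + 10) over 35 points, which are the classes of at least 30 cells in the 4 libraries, among 9932 genes. Points of a library share its depth and preparation, and r is given as a description. Cxcl13 was closest to Ackr2 (r = 0.93), an atypical receptor that takes up inflammatory CC chemokines, and to Smpd3 (0.92) and Ces1d (0.92). Cxcl2 was closest to Wfdc17 (0.92), Adam8 (0.91) and Clec4d (0.90), genes of myeloid cells. Cxcr4 was closest to Nup210 (0.88) and Cxcl12 to Ptprg (0.86). The closest genes were Apod for Cxcl1 (0.76), Steap1 for Cxcl5 (0.77), Pde9a for Cxcl9 (0.76), Spn for Cxcl10 (0.71), Ccl8 for Cxcl14 (0.79) and Tmem106a for Cxcl16 (0.82).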

How the data were processed

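Drop-seq libraries of mouse sciatic nerve cells, 1 per group, were analysed from the count tables deposited by the authors, which hold raw UMI counts per gene and barcode with no normalization. The study's methods name the Drop-seq Alignment Cookbook, the submitters' processing notes name genome build mm10, and the sources used here do not give the aligner version or annotation. Because reads come from 3' ends, isoforms were not distinguished.

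Barcodes with fewer than 200 genes, over 10% mitochondrial or 5% haemoglobin UMIs, or scrublet scores (scanpy 1.11.5) in the top 5% of their library were removed. Counts were scaled by scran 1.30.0 and clustered in Seurat 5.3.0 (R 4.3.3) on 20 principal components of 2000 variable genes at resolution 0.4, the neonatal libraries together. Variable genes excluded the members and the other CXC and context genes. Clusters were named from marker lists, and the naming thresholds for the mesenchymal and mast cell classes were chosen after the clusters were seen. Free RNA in a class was the library's profile times the median, over markers of other classes at 50 CPM or more, of their level in the class relative to the library. Intervals were computed in scipy 1.17.1 (Python 3.11.15) at 95%, a count of 0 was set to a floor of 3 counts per class for ratios, and thinning was to 500 UMIs. With 1 library per group no test between groups was made. Scripts were tested on simulated data.

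Text names the 10 members throughout, the other CXC genes, the context lists of NF-kB targets and dissociation-sensitive genes and the genes with the closest pattern to each member among genes at 50 CPM or more in at least 1 point. The members and lists were chosen with earlier results of these data known. Ackr1 is listed in the tables as Darc. A further context list is not reported here. Alternatives were a minimum of 500 genes, no doublet removal, a 5% mitochondrial limit, library size normalization, a resolution of 0.8, classes from each cell's own markers, thinning, a ratio of 2, a minimum of 30 UMIs and another free RNA profile. A minimum of 10 UMIs for detection, a call only where the higher library was above free RNA, and the sum of epineurial-like and Comp-high mesenchymal-like cells were added after the data were seen.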

Additional observations from a re-analysis of the deposited data

Results flagged for a closer look

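Barcodes with fewer than 200 genes, which entered no comparison, held Cxcl2 at 3 DPI at 1736 CPM (exact Poisson 95% interval 1498 to 1999.99), above the 356 CPM of the cells that were kept. The signal was 191 UMIs in 23 of 186 such barcodes. The neutrophil genes S100a8 and S100a9 were found in 12 and 13 of these 23 barcodes and in 4 and 2 of the other 163. In the uninjured nerve the corresponding barcodes had 1 Cxcl2 UMI.

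The ratio of 3 DPI to uninjured Cxcl12 was 2.47 in epineurial-like and 0.144 in Schwann-like cells, on opposite sides of 1 with 1 library on each side. The difference between the classes was not tested. The Schwann-like value rests on 10 UMIs at 3 DPI, a level below the expected free RNA.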

How the results depend on the processing

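No paired analysis was possible because each group was 1 library. Of 118 recomputed counts of members past the ratio, 89 stayed within 1.5 times the reported count, as did 34 of 36 counts of detected members. The share of all genes called under each alternative is not given here, so these counts describe only how the calls on members moved. Counts of higher members became 2 in endoneurial-like cells with at least 500 genes, own markers or thinning and 5 at a ratio of 2. In epineurial-like cells they became 4 with own markers and 1 with thinning or the free RNA condition. In Comp-high mesenchymal-like cells they became 3 at resolution 0.8 (Cxcl12 at 6.15 and Cxcl14 at 5.79 besides Cxcl2) and 0 with thinning, a minimum of 30 UMIs or the free RNA condition. Schwann-like cells had 1 with thinning or 30 UMIs, endothelial-like cells 0 with thinning and 2 at a ratio of 2, and VSM/pericyte-like cells 1 with 500 genes or own markers. Counts of lower members became 2 in endoneurial-like cells with thinning or a ratio of 2, and 0 with own markers and 2 at a ratio of 2 in epineurial-like cells. They became 0 at resolution 0.8 in Comp-high mesenchymal-like cells, where Cxcl13 had too few UMIs, and 1 with a 5% mitochondrial limit or thinning and 0 with own markers in Schwann-like cells. In endothelial-like cells they became 1 without doublet removal or at a ratio of 2, and in VSM/pericyte-like cells 0 without doublet removal and 2 with own markers. Thinned, 3 members were detected in neonatal FACS and 2 in neonatal beads, since fewer UMIs remain. Cxcl14 in epineurial-like cells reversed to 0.795 with own markers, which kept 62.7% of all cells in their class, compared with 96.7% at resolution 0.8. The cause of the other changes was not tested. Of 203 recomputed levels 177 moved by less than the counting error, and of 203 shares 166. With 1 library per group, intervals cover counting error and not the spread between animals.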

Other observations

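Of the 13 other CXC ligands and receptors searched for, 11 were listed in at least 1 library. At 3 DPI the receptor of the neutrophil-attracting ligands, Cxcr2, was at 3050 CPM (2364 to 3874) in neutrophil-like cells, with a UMI in 62.5% of them. Cxcl3, the close relative of Cxcl2, was at 2276 CPM in neutrophil-like and 589 CPM in macrophage/monocyte-like cells, in 10% and 7.97% of cells. Cxcr6, the receptor of Cxcl16, was at 356 CPM in lymphoid-like cells (21.3% of cells), and Cxcr3, the receptor of Cxcl9 and Cxcl10, was at 92.8 CPM there from 6 UMIs. Pf4, a platelet and macrophage chemokine, was at 5924 CPM (5575 to 6290) in neonatal FACS immune-like cells with a UMI in 82.5% of cells, and at 1162 CPM in macrophage/monocyte-like cells at 3 DPI.

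Atypical receptors, which bind chemokines without classical signalling, were found in structural cells. Ackr3, which binds Cxcl12, was highest in adult epineurial-like cells, at 533 CPM (476 to 596) at 3 DPI and 1124 CPM (972 to 1291) in the uninjured nerve, in 50.8% and 75.8% of cells. In the neonatal libraries it was highest in perineurial-like cells, at 120.0 CPM in FACS and 168 CPM in beads. Ackr1, a receptor of venular endothelium, was at 468 CPM at 3 DPI and 562 CPM uninjured in endothelial-like cells, and at 59.4 and 193 CPM in those of neonatal FACS and beads.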
